A study of Mus musculus with 12 samples.

Results

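Tnfrsf1a, the gene of TNF receptor 1 (Tnfr1), lies on mouse chromosome 6 among genes of varied function, including other members of the TNF receptor superfamily. The 10 genes described here, Ltbr, Scnn1a, Plekhg6, Cd27, Tapbpl, Vamp1, Mrpl51, Ncapd2, Cd9 and Vwf, were chosen because they flank Tnfrsf1a and not for any measured value. Among 18193 genes with a probe set of their own, they are read by 15 of the 45037 probe sets tested, 3 for Mrpl51, 2 each for Vamp1, Ncapd2 and Tapbpl, and 1 each for the others. A further probe set is annotated to Vamp1 and another gene, with log2 signals of 3.77 to 4.15 on the 12 arrays, and was not counted. A probe set is a group of short probes on the array that together report 1 transcript.

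Gene expression was measured on 12 Affymetrix arrays of glomeruli from male mice of 6 to 8 weeks on the C57BL/6J background. The 4 genotypes, with 3 arrays each, were Tnfr1-/- (B6.129-Tnfrsf1atm1Mak), Tnfr1,2-/- (which carry both mutated alleles), Tnfr2-/- (B6.129-Tnfrsf1btm1Mwm) and wildtype. Every culture held 5000 glomeruli that were starved of serum and then exposed to 50 ng/ml TNF for 12 hours, so all 4 genotypes share the stimulus, and arrays of unstimulated glomeruli were not used here. The alleles are germline deletions that affect every cell, and the methods state that wildtype and Tnfr1,2-/- mice came from crosses of the single mutants.

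A gene targeted in embryonic stem cells of one strain and then crossed onto another keeps a stretch of donor chromosome around the mutated allele, and the genes nearest to the target are the last to be exchanged. A transcript next to a targeted gene can therefore differ between mutant and wildtype mice with loss of the receptor or with the strain its own DNA comes from. In this design every Tnfr1-deficient group carries the same targeted chromosome 6 allele, and these cannot be told apart. The Tnfr1 genotype was compared within each Tnfr2 genotype, as Tnfr1-/- against wildtype glomeruli and as Tnfr1,2-/- against Tnfr2-/- glomeruli. These comparisons share no array.

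By start position in the mouse reference GRCm38.p6, the order along chromosome 6, in kb from the start of Tnfrsf1a, was Ncapd2 at -182, Mrpl51 at -158, Vamp1 at -134, Tapbpl at -126, Cd27 at -117, Ltbr at -43.2, Scnn1a at -35.5, Plekhg6 at 12.9, Cd9 at 111 and Vwf at 203. Their starts span 385 kb. The reference lists 12 protein-coding genes from Ncapd2 to Vwf, and 11 of these, namely the 10 genes and Tnfrsf1a itself, have a probe set of their own. Ltbr and Scnn1a are the neighbours on one side of Tnfrsf1a and Plekhg6 is the neighbour on the other.

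The log2 values of the arrays were normalized together by the authors, and the median of the 12 arrays was between 5.58 and 5.64. Differences were tested with a moderated linear model over all 12 arrays (limma), and p-values were adjusted over all probe sets by the Benjamini-Hochberg method. Calls required an adjusted p under 0.05 together with a difference of at least 1.5-fold. Of all probe sets, 0.362% were called lower and 0.198% higher in Tnfr1-/- than in wildtype glomeruli, 0.522% lower and 0.144% higher in Tnfr1,2-/- than in Tnfr2-/- glomeruli, and 0.935% lower and 0.497% higher for the mean of these 2 comparisons. This mean is the effect of the Tnfr1 genotype over both Tnfr2 genotypes. With the replicate number as a block, 498 probe sets in place of 252 were called in Tnfr1-/- against wildtype glomeruli.

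The targeted gene itself was measured first. Tnfrsf1a (1417291_at) had log2 signals of 9.80, 10.18 and 9.24 in Tnfr1-/- glomeruli, against 10.70, 10.73 and 10.23 in wildtype glomeruli. It had 9.61, 9.14 and 9.11 in Tnfr1,2-/- glomeruli, against 10.77, 10.82 and 10.60 in Tnfr2-/- glomeruli. All 6 Tnfr1-deficient arrays lay below all 6 others, although signal remained well above the array medians in the mutants. The log2 difference was -0.82 in the first comparison (adjusted p = 0.357, not called), -1.44 in the second (adjusted p = 0.0205, up to 0.110 and not called without Tnfr1,2-/- replicate 2 or 3 or any 1 Tnfr2-/- array) and -1.13 over both (adjusted p = 0.00533). Whether its probes lie in the deleted part of the gene is not given in the sources used here, so the remaining signal does not check the deletion.

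Tapbpl was the flanking gene that differed by Tnfr1 genotype. It encodes TAPBPR, a relative of tapasin that edits the peptides bound to MHC class I molecules. Its signal was lower without Tnfr1 in both Tnfr2 genotypes and with both of its probe sets. None of the 13 probe sets of the other 9 genes was called in any Tnfr1 comparison, and 0 of them had an unadjusted p under 0.05 in limma. Of all probe sets, 4.94% had one in Tnfr1-/- against wildtype glomeruli, 6.96% in Tnfr1,2-/- against Tnfr2-/- glomeruli and 8.85% over both.

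With probe set 1451544_at, Tapbpl had log2 signals of 6.66, 6.91 and 6.47 in Tnfr1-/- glomeruli, against 8.15, 8.33 and 7.5 in wildtype glomeruli. In Tnfr1,2-/- glomeruli the signals were 6.38, 6.42 and 6.33, against 7.86, 8.50 and 7.82 in Tnfr2-/- glomeruli. The highest Tnfr1-deficient array lay below the lowest array with intact Tnfr1. The mean was 2.48-fold lower in Tnfr1-/- than in wildtype glomeruli (log2 difference -1.31, 95% confidence interval -1.84 to -0.79, adjusted p = 0.0394). It was 3.21-fold lower in Tnfr1,2-/- than in Tnfr2-/- glomeruli (log2 difference -1.68, interval -2.21 to -1.16, adjusted p = 0.00745). Over both Tnfr2 genotypes it was 2.82-fold lower (log2 difference -1.5, interval -1.87 to -1.13, adjusted p = 0.000754).

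The dimmer Tapbpl probe set, 1424961_at, gave 4.33, 4.33 and 4.62 in Tnfr1-/- glomeruli, against 5.29, 5.19 and 5.96 in wildtype glomeruli. It gave 4.43, 4.65 and 4.41 in Tnfr1,2-/- glomeruli, against 5.59, 5.62 and 5.66 in Tnfr2-/- glomeruli. The 6 Tnfr1-deficient arrays were again all below the 6 others, and 9 of the 12 values lay below the median of their array. The log2 difference was -1.05 (interval -1.47 to -0.64, adjusted p = 0.0382) in Tnfr1-/- against wildtype glomeruli and -1.12 (interval -1.54 to -0.70, adjusted p = 0.0227) in Tnfr1,2-/- against Tnfr2-/- glomeruli. Over both it was -1.09, or 2.13-fold lower (interval -1.38 to -0.79, adjusted p = 0.00143).

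Both Tapbpl probe sets were among the 1.23% of all probe sets for which every Tnfr1-deficient array lay below every other array, and no other flanking gene was. The calls in Tnfr1-/- against wildtype glomeruli stood close to the threshold. When 1 array was left out, 1 of the 2 calls remained without wildtype replicate 3 or Tnfr2-/- replicate 2 and 0 without any other, with adjusted p values of up to 0.2 for 1451544_at and 0.149 for 1424961_at. In Tnfr1,2-/- against Tnfr2-/- glomeruli 1451544_at was called whichever array was left out, while leaving out any 1 of the 6 arrays compared ended the call of 1424961_at (adjusted p up to 0.105). Over both Tnfr2 genotypes each probe set was called whichever array was left out, with the highest adjusted p at 0.00348 for 1451544_at and 0.00636 for 1424961_at.

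**Figure D1:**
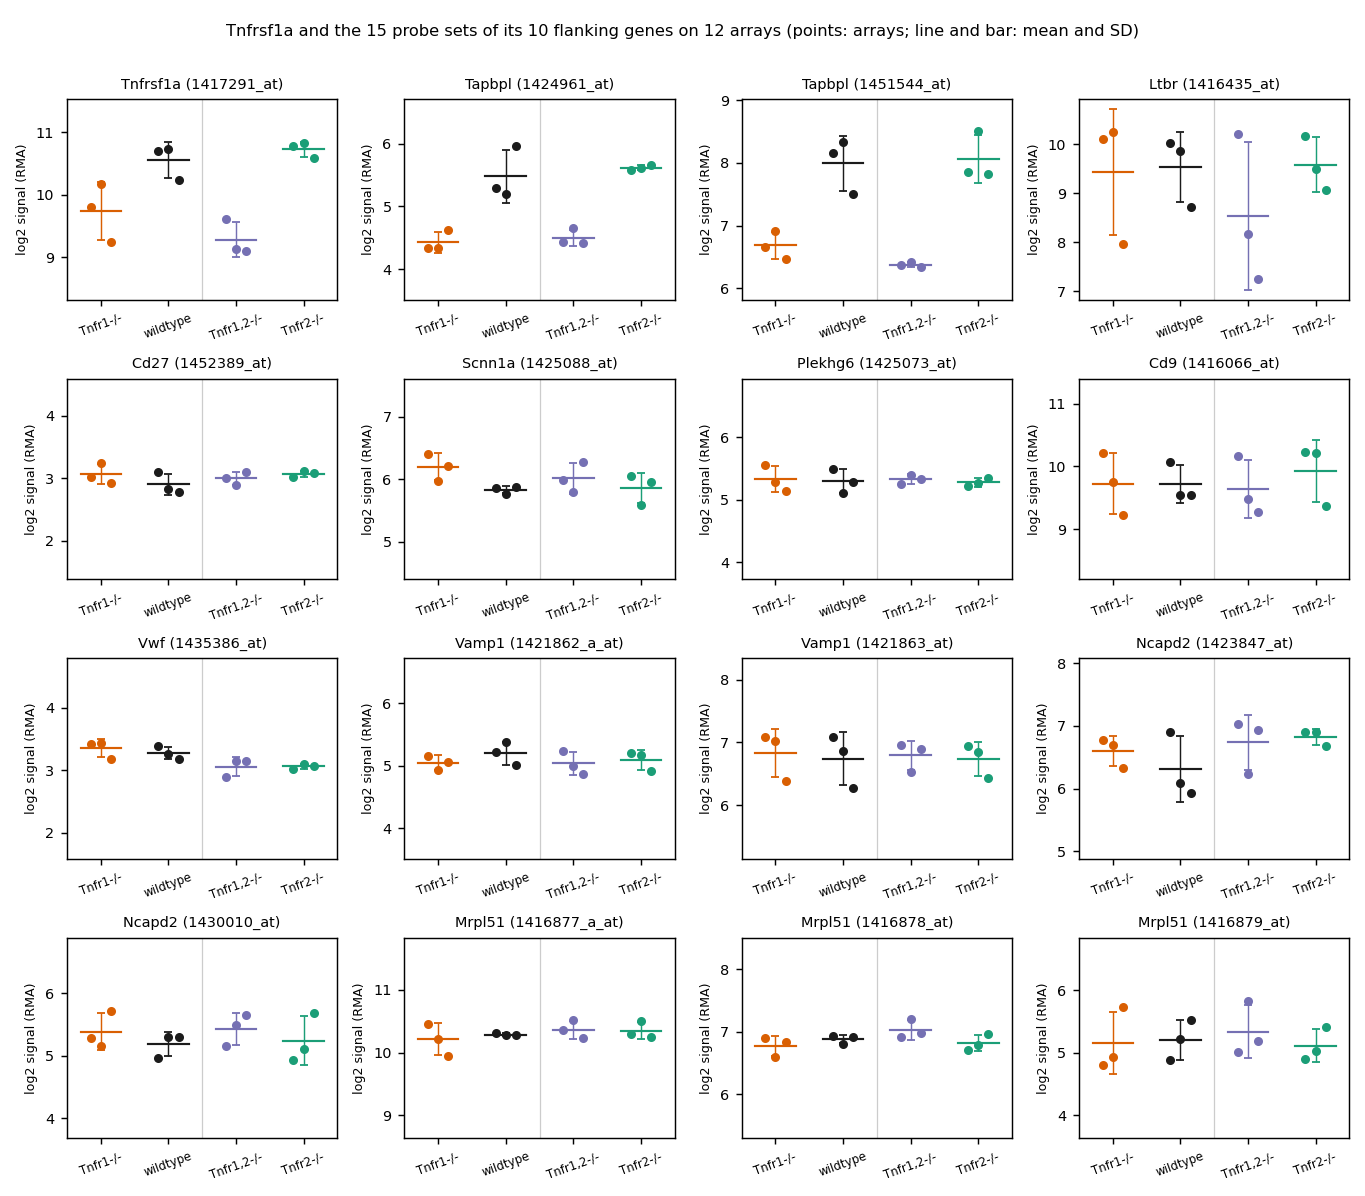
Log2 signal (vertical axis) of Tnfrsf1a and of the 15 probe sets of the 10 flanking genes in Tnfr1-/-, wildtype, Tnfr1,2-/- and Tnfr2-/- glomeruli. Each point is 1 array and each line and bar the mean and SD of 3 arrays. The Tnfr1-deficient arrays lie below the others for Tnfrsf1a and both Tapbpl probe sets, while the 4 genotypes overlap for the other genes in most panels and spread widely for Ltbr.

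The other receptors of the region belong, like Tnfr1, to the TNF receptor superfamily. Ltbr encodes the lymphotoxin beta receptor, which directs the formation of lymphoid organs and signals through the noncanonical NF-κB pathway. Its probe set (1416435_at) read 10.10, 10.26 and 7.96 in Tnfr1-/- glomeruli, against 10.03, 9.87 and 8.72 in wildtype glomeruli. It read 10.21, 8.18 and 7.24 in Tnfr1,2-/- glomeruli, against 10.18, 9.50 and 9.08 in Tnfr2-/- glomeruli. The arrays of each genotype spread widely, and the genotypes overlapped. The log2 difference was -0.10 in the first comparison and -1.04 in the second (interval -2.75 to 0.67, adjusted p = 0.847). Over both it was -0.57 with an interval of -1.78 to 0.64, which leaves room for a decrease or an increase of more than 1.5-fold.

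Cd27 encodes a costimulatory receptor of T and B cells that binds CD70. Its signal was between 2.77 and 3.25 on the 12 arrays, below the median of every array. The log2 difference over both Tnfr2 genotypes was 0.05 (adjusted p = 0.950). At such a signal a decrease could not have been seen.

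Scnn1a, the gene next to Tnfrsf1a, encodes the alpha subunit of the epithelial sodium channel of the distal nephron. It read 6.41, 5.98 and 6.22 in Tnfr1-/- glomeruli, against 5.86, 5.77 and 5.88 in wildtype glomeruli. Tnfr1,2-/- glomeruli had 5.98, 5.79 and 6.28, against 6.05, 5.59 and 5.95 in Tnfr2-/- glomeruli. The Tnfr1-/- arrays were all higher than the wildtype arrays, whereas the Tnfr1,2-/- arrays overlapped the Tnfr2-/- arrays. The log2 difference was 0.37 in the first comparison (interval -0.01 to 0.74, adjusted p = 1.0) and 0.15 in the second (adjusted p = 0.885). Over both it was 0.26, with the smallest adjusted p of the 13 probe sets at 0.581.

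Counting separation alone, 3 of the 15 probe sets had Tnfr1-/- arrays all above or all below the wildtype arrays, the 2 of Tapbpl and that of Scnn1a, where 9.79% of all probe sets were separated in this way. The Tnfr1,2-/- and Tnfr2-/- arrays were separated for the 2 Tapbpl probe sets, where 10.4% of all probe sets were.

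Plekhg6, the neighbour on the other side, encodes a guanine nucleotide exchange factor. Its signal stayed between 5.11 and 5.56 on all arrays, below the median of each, and the log2 difference over both Tnfr2 genotypes was 0.04. Cd9 encodes a tetraspanin, a membrane protein that organizes integrins and other partners at the cell surface. It was one of the brightest probe sets of the region, with 10.21, 9.74 and 9.23 in Tnfr1-/- glomeruli, against 10.07, 9.55 and 9.54 in wildtype glomeruli. In Tnfr1,2-/- glomeruli it had 10.16, 9.48 and 9.27, against 10.23, 10.21 and 9.36 in Tnfr2-/- glomeruli. The genotypes overlapped, and the log2 difference over both was -0.14 (interval -0.65 to 0.37, adjusted p = 0.937).

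Vwf encodes von Willebrand factor, which endothelial cells store in Weibel-Palade bodies and which tethers platelets. Its probe set (1435386_at) read 3.42, 3.44 and 3.19 in Tnfr1-/- glomeruli, against 3.38, 3.26 and 3.19 in wildtype glomeruli. Tnfr1,2-/- glomeruli had 2.88, 3.14 and 3.15, against 3.02, 3.09 and 3.07 in Tnfr2-/- glomeruli. These values lay below the median on all 12 arrays, although the 10 endothelial marker genes examined were above it on all arrays. The Tnfr1 log2 difference over both was 0.04 (adjusted p = 0.963).

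The genes farthest from Tnfrsf1a on the side of Scnn1a serve general functions of the cell. Vamp1 encodes a vesicle SNARE protein of regulated exocytosis, and its probe sets differed by -0.10 (1421862_a_at) and 0.07 (1421863_at) on the log2 scale over both Tnfr2 genotypes. Ncapd2 encodes a subunit of the condensin I complex, which compacts chromosomes in mitosis, with log2 differences of 0.10 (1423847_at) and 0.19 (1430010_at). Mrpl51, a protein of the large subunit of the mitochondrial ribosome, gave -0.03 (1416877_a_at), 0.05 (1416878_at) and 0.09 (1416879_at). The first Mrpl51 probe set was bright, with 10.46, 10.22 and 9.95 in Tnfr1-/- glomeruli, against 10.31, 10.27 and 10.27 in wildtype glomeruli, and 10.35, 10.51 and 10.23 in Tnfr1,2-/- glomeruli, against 10.29, 10.51 and 10.25 in Tnfr2-/- glomeruli. In both comparisons the arrays overlapped.

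Over both Tnfr2 genotypes the 13 probe sets of the 9 other genes had log2 differences between -0.57 (Ltbr) and 0.26 (Scnn1a). Their median was 0.05, against 0.01 for all probe sets. For 11 of the 13 the 95% confidence interval lay within a 1.5-fold change in either direction, and the exceptions were Ltbr and Cd9. Of these 11, 6 lay below the array median on at least 9 arrays, where a narrow interval shows little about the transcript. In the single comparisons the intervals were wider, and 6 of 13 lay within 1.5-fold for Tnfr1-/- against wildtype and 7 of 13 for Tnfr1,2-/- against Tnfr2-/- glomeruli.

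**Figure D2:**
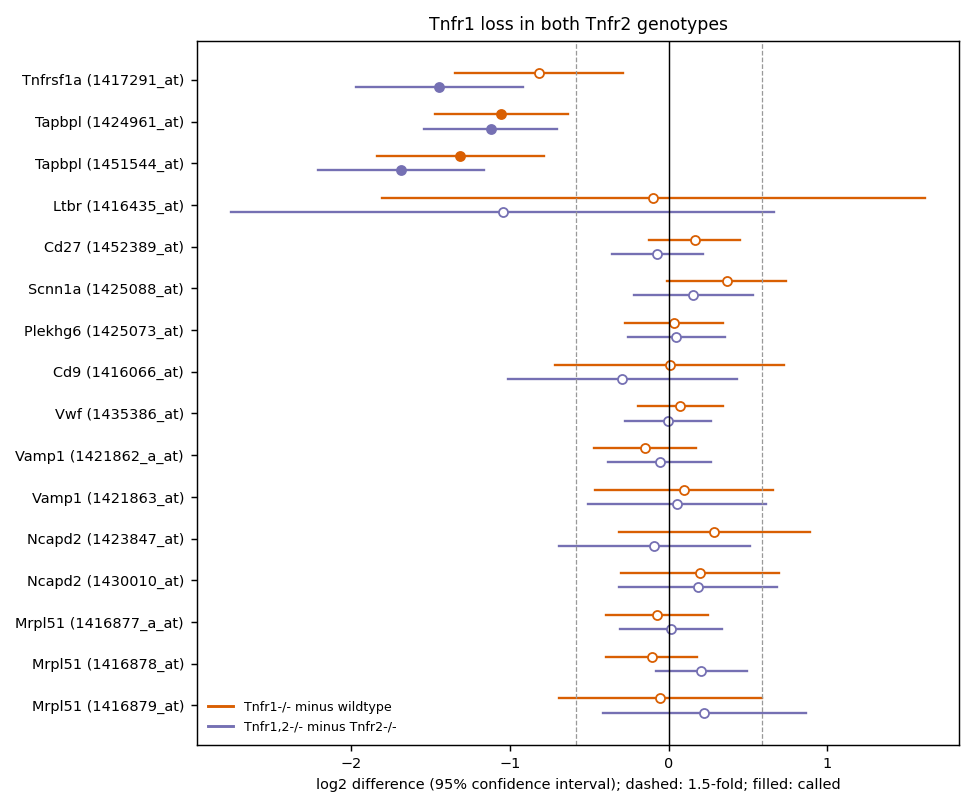
Log2 difference (horizontal axis) with its 95% confidence interval for Tnfr1-/- minus wildtype and Tnfr1,2-/- minus Tnfr2-/- glomeruli, for Tnfrsf1a and the 15 probe sets. Filled points were called, and the dashed lines mark 1.5-fold. Both Tapbpl probe sets were called in both comparisons, and the Ltbr intervals are the widest of those drawn.

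Whether the Tnfr1 effect depended on the Tnfr2 genotype was tested as the difference of the 2 comparisons. This difference was called for none of the 15 probe sets and for 0% of all, with 1.42% at an unadjusted p under 0.05 in limma and none of these among the 15. For Tapbpl it was -0.37 (1451544_at, interval -1.11 to 0.37) and -0.07 (1424961_at, interval -0.66 to 0.52). Both intervals allow the Tnfr1 effect to differ by more than 1.5-fold between the Tnfr2 genotypes.

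Loss of Tnfr2, whose gene lies on chromosome 4, was measured as the mean of Tnfr2-/- minus wildtype and Tnfr1,2-/- minus Tnfr1-/-, and was called for 0.0178% of all probe sets, which are 8, and for 5 to 7 when 1 array was left out (5 without wildtype 1, Tnfr1,2-/- 3, Tnfr2-/- 2 or Tnfr2-/- 3). None of the 15 was called. Tapbpl differed by -0.12 (1451544_at, interval -0.49 to 0.25) and 0.10 (1424961_at, interval -0.19 to 0.40) on the log2 scale. Vwf was the 1 flanking gene with an unadjusted p under 0.05, at a log2 difference of -0.25 (adjusted p = 1.0 in limma), in a signal below the array median throughout. Such a p was found for 0.966% of all probe sets. The targeted gene Tnfrsf1b (1418099_at) averaged 5.33 ± 0.36 in Tnfr2-/- and 7.63 ± 0.20 in wildtype glomeruli, and 5.48 ± 0.10 in Tnfr1,2-/- and 7.48 ± 0.81 in Tnfr1-/- glomeruli (SD, n = 3 each). Its second probe set (1448951_at) differed by only -0.28 (adjusted p = 1.0).

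The spread of Ltbr followed a property of the arrays. The beta-actin control probe sets read the 3′ and the 5′ end of the transcript, and their difference fell into 2 separate ranges, 0.667 to 1.0 on 7 arrays (set 1) and 1.82 to 2.30 on 5 arrays (set 2: Tnfr1-/- 3, Tnfr1,2-/- 2 and 3, Tnfr2-/- 3 and wildtype 3). These sets are not labelled as batches, and each holds all 4 genotypes. With genotype and set in 1 model, 8.77% of all probe sets were called lower and 4.34% higher in set 2 than in set 1. Ltbr was called lower in set 2, with a log2 difference of -1.68 ± 0.27 (SE, adjusted p = 0.00115), with 7.24 to 9.08 in set 2 and 9.50 to 10.3 in set 1. Cd9 was called lower as well, with -0.67 ± 0.14 (SE, adjusted p = 0.00474), with 9.23 to 9.54 in set 2 and 9.55 to 10.2 in set 1. For both genes the sets did not overlap, whatever the genotype.

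The other 13 probe sets of the region were not called between the sets. Vamp1 (1421863_at, -0.52), Mrpl51 (1416879_at, 0.57) and Ncapd2 (1430010_at, 0.44) passed the adjusted p but not the 1.5-fold threshold. Tapbpl differed by -0.35 (1451544_at, adjusted p = 0.0939) and 0.29 (1424961_at, adjusted p = 0.0808).

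With the set in the model, the Tnfr1 log2 difference of Ltbr over both Tnfr2 genotypes was -0.29 (adjusted p = 0.745) in place of -0.57. Within set 1 the Ltbr difference was 0.23 for Tnfr1-/- minus wildtype and 0.37 for Tnfr1,2-/- minus Tnfr2-/-, and within set 2 it was -0.76 and -1.37. Its sign thus changed between the sets, which hold 1 or 2 arrays of each genotype; no test was run within a set. Tapbpl (1451544_at) kept its sign, with -1.45 and -1.80 in set 1 and -1.03 and -1.44 in set 2, and so did 1424961_at, with -0.91 and -1.17 in set 1 and -1.34 and -1.13 in set 2. With the set in the model the Tapbpl differences over both were -1.44 (adjusted p = 0.000121) and -1.14 (adjusted p = 0.00012). Tnfrsf1a was then called in Tnfr1-/- against wildtype glomeruli as well, at an adjusted p of 0.0143.

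**Figure D3:**
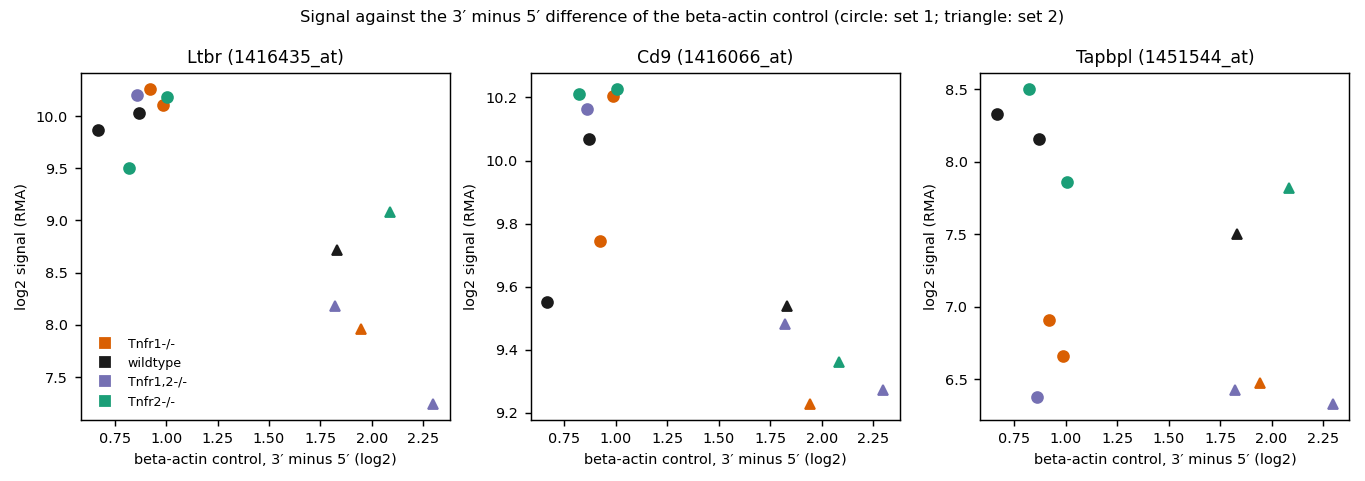
Log2 signal (vertical axis) of Ltbr, Cd9 and Tapbpl against the 3′ minus 5′ log2 difference of the beta-actin control (horizontal axis) on the 12 arrays, coloured by genotype, with circles for set 1 and triangles for set 2. Ltbr and Cd9 are lower on all 5 arrays of set 2, whereas Tapbpl separates by Tnfr1 genotype within each set.

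The wider surroundings of Tnfrsf1a were counted from the same model, with Tnfrsf1a itself left out. Within 1 Mb lay 68 probe sets of 42 genes, and 4 of these were called lower over both Tnfr2 genotypes and 0 higher. These were the 2 of Tapbpl and those of the complement proteases C1ra and C1s1. Within 10 Mb, 15 of 387 probe sets were called lower and 5 higher, or 3.88% and 1.29%, against 0.935% and 0.497% of all probe sets. The sets are unlike, since the window holds only probe sets with 1 gene symbol, while all probe sets include those with several symbols or none. Taken by the brightest probe set of each gene, 1.41% of all genes were called lower and 0.775% higher. Without the 15 probe sets of the flanking genes the counts were 13 and 5 of 372. The total of 20 was 13 when Tnfr2-/- replicate 2 was left out.

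Of the 10 called probe sets with the smallest adjusted p, 3 read C-type lectin receptors of myeloid cells. Clec4e (1420330_at), at -2.07 Mb, averaged 5.05 in Tnfr1-/- against 9.66 in wildtype glomeruli and 4.28 in Tnfr1,2-/- against 8.17 in Tnfr2-/- glomeruli, a log2 difference over both of -4.25 (adjusted p = 4.04e-06). Its second probe set (1420331_at) differed by -1.49 and Clec4n (1425951_a_at) by -1.79. Bid (1417045_at), which links death receptors to the mitochondrial pathway of apoptosis, lay at -4.46 Mb and was called lower with a log2 difference of -1.55 (adjusted p = 2.87e-05). Its other probe sets, 1448560_at (-1.42, adjusted p = 0.0747) and 1447873_x_at (-0.47, adjusted p = 0.308), were not called.

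C1s1 (-1.04, adjusted p = 0.00064) and C1ra (-0.85, adjusted p = 0.00206), which encode the proteases of the first complement component, were the called genes closest to Tnfrsf1a apart from Tapbpl, at -0.819 and -0.837 Mb. Erc1 (1441493_at, -0.85, adjusted p = 0.00164), a scaffold protein of vesicle docking sites, and Olr1 (-1.13, adjusted p = 0.00249), a scavenger receptor for oxidized lipoprotein at 4.13 Mb, completed the 10 with both Tapbpl probe sets. The other Erc1 probe sets, 1421501_a_at, 1424247_at and 1451279_at, differed by 0.04, -0.09 and -0.19 and were not called. The called probe sets were thus not confined to the immediate neighbours, and Tapbpl was the only called gene among the 10 that directly flank Tnfrsf1a.

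**Figure D4:**
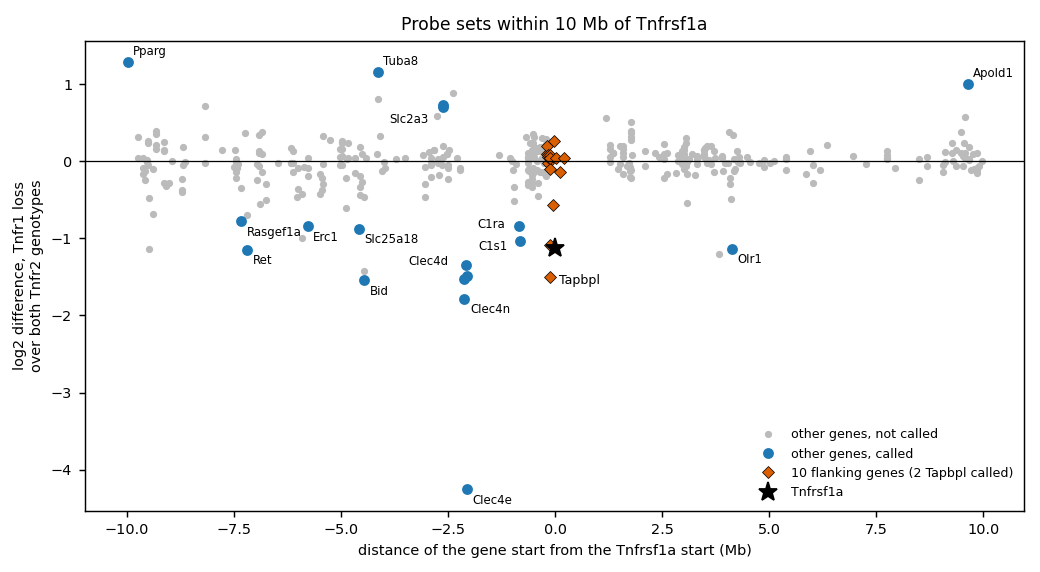
Log2 difference by Tnfr1 genotype over both Tnfr2 genotypes (vertical axis) against the distance of each gene's start from that of Tnfrsf1a (horizontal axis, Mb) for the probe sets within 10 Mb. Diamonds mark the 10 flanking genes, of which Tapbpl alone was called; called probe sets of other genes reach out to almost 10 Mb, with Clec4e at -4.25.

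Tapbpl works on MHC class I molecules, and it was set beside the genes of class I peptide loading and of the immunoproteasome, which cuts the peptides. For each gene of this list the brightest probe set by mean was taken. Of 17 measured genes, 8 were called lower and 0 higher over both Tnfr2 genotypes, where 1.41% of all genes were called lower and 0.775% higher. The median log2 difference was -0.68. The immunoproteasome subunits Psmb10 (-2.83, adjusted p = 0.000225) and Psmb8 (-2.70, adjusted p = 0.00026) and tapasin itself, Tapbp (-1.43, adjusted p = 0.00069), had the smallest adjusted p. The others called were Psmb9, Irf1, Tap2, Erap1 and Psme1.

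The 17 measured genes ranged from -2.83 (Psmb10) to -0.0016 (Nlrc5), and the 8 called genes from -2.83 to -0.97. The Tapbpl differences were -1.5 and -1.09. Tapbpl had passed the same call as these 8 genes, and the list was chosen with earlier results known, so the values are given as a description. In each single comparison 4 of the 17 genes were called lower. Counted by probe set and not by gene, 0.362% of all were lower in Tnfr1-/- than in wildtype glomeruli. In Tnfr1,2-/- against Tnfr2-/- glomeruli it was 0.522%. The class I heavy chain H2-K1 differed by -0.68 (adjusted p = 0.309) and was not called.

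**Figure D5:**
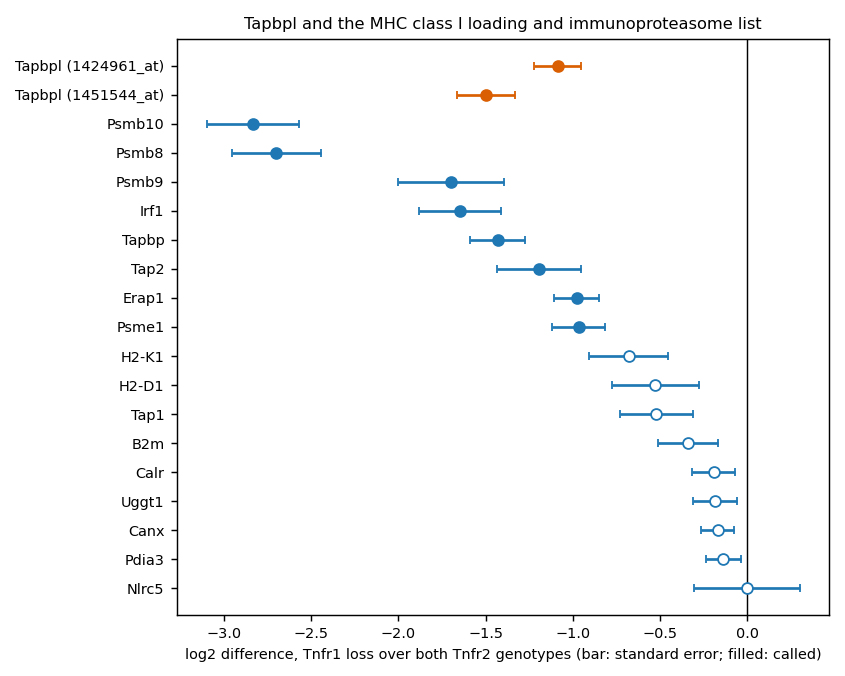
Log2 difference by Tnfr1 genotype over both Tnfr2 genotypes (horizontal axis, bars: standard error) for the 2 Tapbpl probe sets and the 17 measured genes of MHC class I loading and the immunoproteasome. Filled points were called; Tapbpl and 8 of the 17 genes were called lower.

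The genes whose highest-mean probe set resembled Tapbpl (1451544_at) most over the 12 arrays, among 18192 other genes, were Spib (r = 0.976), C1ra (r = 0.975) and Tnip1 (r = 0.973). The 2 Tnfr1 genotypes do not overlap in Tapbpl, so r was also computed within each. Within the 6 Tnfr1-deficient arrays r was 0.554 for Spib, 0.462 for C1ra and 0.829 for Tnip1, and within the 6 arrays with intact Tnfr1 it was 0.890, 0.909 and 0.742. The arrays share their 2 sets, and the values are given as a description.

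The partners of most other flanking genes were counted in the same way, where 1.41% of all genes were called lower and 0.775% higher. Of 9 measured genes of the lymphotoxin beta receptor pathway, the ubiquitin ligases Birc2 (-0.93, adjusted p = 0.000754) and Birc3 (-1.21, adjusted p = 0.00345) were called lower and none higher, with Relb at -1.25 (adjusted p = 0.111) and a median of -0.90. Birc2 was called in both single comparisons. Birc3 was called in Tnfr1,2-/- against Tnfr2-/- (adjusted p = 0.0317) but not in Tnfr1-/- against wildtype glomeruli (adjusted p = 0.113). None was called among 6 genes around the epithelial sodium channel, including Scnn1g (0.06) and the kinase Sgk1 (-0.34, adjusted p = 0.0892), nor among 4 of the CD27 pathway. The same held for 10 SNARE genes, 11 condensin and mitosis genes, 39 other genes of the large mitochondrial ribosome and 11 tetraspanins and partners, of which Cd82 differed by -1.06 (adjusted p = 0.227). Of 5 partners of von Willebrand factor, Angpt2, which is stored with it in Weibel-Palade bodies, was called higher (0.65, adjusted p = 0.00734) and the platelet integrin subunit Itgb3 was called lower (-0.78, adjusted p = 0.0354). Angpt2 differed by 1.06 for Tnfr1-/- minus wildtype (adjusted p = 0.00814) and by 0.24 for Tnfr1,2-/- minus Tnfr2-/- glomeruli (adjusted p = 0.825). Itgb3 was called in neither of these comparisons (adjusted p = 0.590 and 0.166).

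In these preparations of whole glomeruli, fewer cells of a type and less RNA per cell cannot be told apart. The podocyte, endothelial and parietal markers, 6, 10 and 5 genes, were above the median on all 12 arrays, and none was called by Tnfr1 genotype. The mean endothelial marker level was 9.26 to 10.2 in Tnfr1-/- against 8.72 to 9.38 in wildtype glomeruli and 8.87 to 9.84 in Tnfr1,2-/- against 9.15 to 9.88 in Tnfr2-/- glomeruli. All 10 endothelial markers had positive log2 differences for Tnfr1-/- minus wildtype, from 0.39 to 1.19, with a smallest adjusted p of 0.0790 (Kdr, 1.09), and 4 of 10 had positive ones for Tnfr1,2-/- minus Tnfr2-/-, within a range of -0.93 to 0.68. Their part in the Tapbpl difference was not tested. Among 8 mesangial and smooth muscle markers Itga8 was called higher (0.98, adjusted p = 0.00504), where 0.775% of all genes were. Itga8 differed by 1.40 for Tnfr1-/- minus wildtype (adjusted p = 0.0116) and by 0.55 for Tnfr1,2-/- minus Tnfr2-/- glomeruli (adjusted p = 0.571). None of 10 tubular markers, 7 macrophage markers and 6 lymphocyte markers was called. The mean macrophage marker level was 6.72 to 7.42 in Tnfr1-/- against 6.62 to 7.16 in wildtype glomeruli and 6.48 to 6.82 in Tnfr1,2-/- against 6.86 to 7.36 in Tnfr2-/- glomeruli.

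Among 4 neutrophil markers S100a8 was called lower (-1.22, adjusted p = 0.00487). The mean level of this list was 4.10 to 4.18 in Tnfr1-/- against 4.29 to 4.47 in wildtype glomeruli and 3.94 to 4.26 in Tnfr1,2-/- against 4.36 to 4.42 in Tnfr2-/- glomeruli. The other 3 genes were below the median on all 12 arrays and none was called, with log2 differences over both Tnfr2 genotypes of 0.26 for S100a9, 0.01 for Mpo and -0.00 for Elane. The part of these cells in the Tapbpl difference was not tested.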

How the data were processed

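RNA of TNF-exposed glomeruli was hybridized to Affymetrix mouse genome arrays, 3 per genotype. The robust multichip average was computed by the authors for all arrays jointly (RMA Express, default probe set definitions), and the deposited values, on the log2 scale, were used as they are. The methods state independent RNA preparations for each genotype, and the values are described as coming from independent experiments. Whether these used separate mice is not given, so p-values measure the spread between these preparations. Of 45101 probe sets, 64 controls were left out. By the platform annotation, 34945 of the rest carried 1 gene symbol, 932 several and 9160 none, and only the first kind was named. Positions came from RefSeq by gene identifier (34741 probe sets matched).

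Models were fitted with limma 3.58.1 in R 4.3.3 (lmFit to the 4 genotype means, contrasts, eBayes without trend, 8 residual degrees of freedom). Named were all probe sets of the flanking genes and of the targeted genes, the 10 called probe sets within 10 Mb with the smallest adjusted p, up to 3 genes per list with the smallest adjusted p, and the 3 genes most like Tapbpl. Also named were the other probe sets of Bid and Erc1, the remaining called class I genes, Nlrc5, H2-K1, S100a9, Mpo, Elane and Scnn1g. The other measured class I genes were counted but are not named in the text. The genes and lists were chosen with earlier results of these data known. A list was described by the gene's probe set with the highest mean and by counts alone; the list for Plekhg6 is not reported here. Simulated data with known changes served to test the fits. No label says what a replicate number shares. Deviations from the group means correlated at 0.31 to 0.71 between same-numbered Tnfr1-/- and wildtype arrays, which pairs them by the rule used (each over 0.1), and at -0.18 to 0.54 between Tnfr1,2-/- and Tnfr2-/- arrays, which does not. Same-numbered Tnfr1-/- and wildtype arrays also lie in the same array set, whereas replicate 2 of Tnfr1,2-/- and of Tnfr2-/- lie in different sets. What same-numbered arrays share was not tested.

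Alternatives were 1 probe set or the mean of the probe sets per gene, cyclic loess, median centring, omission of dim probe sets (a log2 value of at least 6 on at least 3 arrays required) or of those with several transcripts, a mean-variance trend, array weights, only the 6 arrays compared, no fold threshold or a 2-fold threshold, the SAM statistic at a q under 5% (written anew), a replicate block, the array set as a term, other windows, and leaving out each array.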

Additional observations from a re-analysis of the deposited data

How the results depend on the processing

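In Tnfr1-/- against wildtype glomeruli, 2 flanking probe sets were called. This count was 1 with 1 probe set per gene, with averaged probe sets, without dim probe sets, with a mean-variance trend and with SAM, and 0 with only the 6 arrays compared. Leaving out 1 array gave 0 to 1, with 1 only without wildtype 3 or Tnfr2-/- 2. In Tnfr1,2-/- against Tnfr2-/- glomeruli and over both Tnfr2 genotypes the count was likewise 1 instead of 2 with 1 probe set per gene, with averaged probe sets and without dim probe sets, since Tapbpl then has 1 probe set. Leaving out 1 array gave 1 to 2 in Tnfr1,2-/- against Tnfr2-/- glomeruli, with 1 without each of the 6 arrays of these genotypes, and 2 in every case over both. The Tapbpl differences kept their sign in all 146 alternative values, and 32 lost the call, all in a single comparison and none over both. Over both and with 1 array left out, 1451544_at ranged from -1.62 to -1.39 and 1424961_at from -1.16 to -0.97. With the 2 probe sets averaged the difference over both was -1.29. The other flanking genes were called in 0 of 952 alternative values and changed sign in 51. Within 10 Mb, 20 probe sets were called. This count was 13 with averaged probe sets, with a 2-fold threshold and without probe sets of several transcripts, 13 to 19 when 1 array was left out (13 without Tnfr2-/- 2), 4 within 1 Mb and 32 within 20 Mb. By the correlation rule above, a replicate block pairs the Tnfr1-/- and wildtype arrays. It also pairs the Tnfr2-/- arrays with both, at 0.31 to 0.79 with wildtype and 0.29 to 0.70 with Tnfr1-/- arrays. The Tnfr1,2-/- arrays are paired with no other genotype, as each of their correlations for replicate 2 was negative. With the replicate block, the count of flanking probe sets was 2 in each Tnfr1 comparison and that within 10 Mb was 26. Over all probe sets, 252 were called in Tnfr1-/- against wildtype glomeruli, 300 in Tnfr1,2-/- against Tnfr2-/- glomeruli and 645 over both, and these counts were 498, 814 and 1150 with the replicate block, 546, 506 and 1007 with the array set and 414, 783 and 1040 with array weights. The first 2 were 99 and 158 with only the 6 arrays compared and 86 to 287 and 170 to 317 without 1 array, and the count over both was 401 with averaged probe sets and 396 at 2-fold. The 8 called for loss of Tnfr2 became 13 with the replicate block, 5 with 1 probe set per gene and 3 with averaged probe sets. Of the 17 class I genes, 5 to 9 were called lower over the settings (chosen after seeing the data). Where a count changed otherwise, the cause was not tested. The number of arrays limits the single comparisons, in which 7 and 6 of the 13 other intervals reached beyond 1.5-fold, and signals below the array median limit what could be seen of Cd27, Plekhg6, Vwf, Vamp1 (1421862_a_at), Mrpl51 (1416879_at) and Ncapd2 (1430010_at).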
